A study of Mus musculus with 16 samples.

Results

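Clusters of H3K27 acetylation without a called peak of the fusion oncoprotein were examined in mouse clear cell sarcoma (mCCS) tumours. The tumours expressed a V5-tagged EWSR1::ATF1 (EA1), in which a human cDNA under the Rosa26 promoter was released by TATCre protein injected into the hindlimb of mice of mixed 129/SvJ and C57Bl/6 background. Chromatin from whole tumours was immunoprecipitated with antibodies against V5 (4 labelled samples), RNAPOL2 (4) and H3K27ac (4), and 4 samples were input chromatin. All 16 samples carried the fusion, so no tissue without it was compared. The data analysed here are 1 peak list per antibody, with 27552 H3K27ac, 20375 RNAPOL2 and 10665 V5 peaks and a score for each peak.

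H3K27ac peaks on the same chromosome with gaps of at most 12 kb were stitched, which gave 16205 regions, of which 2450 held at least 3 H3K27ac peaks and are called clusters. Of these, 942 (38.4%) shared no base with any V5 peak and are the clusters free of V5. The other 1508 clusters, which hold V5, served as the comparison. The members were thus selected on the number and position of their H3K27ac peaks and on the V5 list, and their widths and H3K27ac scores are given as a description. The study describes a larger set of V5 sites than the list analysed here, so free of V5 means without a peak of this list and not without the fusion. The study also reports that every super-enhancer it called from H3K27ac signal, by its own stitching and ranking, held an EA1 site. Super-enhancers were not called here. Tumours also contain host cells, and from which cells a peak came cannot be told apart.

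Acetylation of lysine 27 on histone H3 is laid down by the coactivators p300 and CBP and marks active promoters and enhancers. Runs of neighbouring acetylated elements are known from genes that a cell transcribes strongly or that set its identity. The antibody against phosphorylated RNAPOL2 marks polymerase engaged in transcription. ATF1, whose DNA-binding domain the fusion keeps, belongs to the CREB family of bZIP factors, which bind the palindrome TGACGTCA.

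The canonical ATF/CREB motif was rare in these clusters, and 7 of the sites that did occur are shown first. Of 3778 H3K27ac peaks in clusters free of V5, 19 held TGACGTCA in their central 500 bp, each in a different cluster. An RNAPOL2 peak overlapped 7 of the 19 (36.8%), against 73 of 120 such peaks (60.8%) in V5-holding clusters. Over all H3K27ac peaks of the members, it was 58.6% within 3 kb of a TSS and 16.9% farther away. Those 7 sites, chosen after their values were seen, are given from the RefSeq sequence of GRCm38.p6 (the assembly that mm10 names), plus strand, with the motif in capitals and named by the nearest coding gene.
Sdhb, chr4:140961377-140961406: aggggtggggcTGACGTCAggagccaaaat
Ccdc130, chr8:84270343-84270372: tgccctctcccTGACGTCAcgcctccacca
Fam50a, chrX:74313011-74313040: tccctggtggcTGACGTCAcgcatcagctg
Mrgprf, chr7:145300579-145300608: tcaggccaacgTGACGTCAtcaggcagaga
Tent5b, chr4:133468232-133468261: ttccgcccctcTGACGTCAatgcccgagcc
Col1a2, chr6:4524436-4524465: tcgtagtttcaTGACGTCAaggggacagtc
Etv5, chr16:22505050-22505079: caagtgttccaTGACGTCAtctggcccccc
The first 4 sites lay at promoters. The motif was 5 bp from a transcription start site (TSS) of Sdhb, which encodes the iron-sulphur subunit of succinate dehydrogenase, in an H3K27ac peak of score 1418. It was 5 bp from a TSS of Ccdc130 (peak score 824), 3 bp from a TSS of Fam50a (573) and 230 bp from a TSS of Mrgprf, a Mas-related G protein-coupled receptor gene (703). The other 3 lay farther than 3 kb from any TSS. These were 11881 bp from a TSS of Tent5b (peak score 181), 3822 bp from one of Col1a2 (34) and 65341 bp from Etv5, an ETS factor gene (101). The other 12 sites, without RNAPOL2, lay in peaks that scored between 40 and 273.

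A pair of promoters is shown because Spen and Rhob were the genes whose clusters ranked among both the 10 highest H3K27ac and the 5 highest RNAPOL2 scores. Each run is the 250 bases before the RefSeq start in GRCm38.p6, read 5' to 3' along the gene, with capitals for the GC box GGGCGG and, separately, for the box CCAAT, both searched on either strand.
Spen, chr4:141538598-141538847, minus strand: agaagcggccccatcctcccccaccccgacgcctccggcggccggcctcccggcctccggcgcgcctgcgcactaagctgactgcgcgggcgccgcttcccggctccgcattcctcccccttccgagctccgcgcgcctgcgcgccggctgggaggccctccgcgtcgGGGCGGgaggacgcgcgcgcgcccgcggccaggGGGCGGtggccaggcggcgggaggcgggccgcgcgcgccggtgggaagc
Rhob, chr12:8500010-8500259, minus strand: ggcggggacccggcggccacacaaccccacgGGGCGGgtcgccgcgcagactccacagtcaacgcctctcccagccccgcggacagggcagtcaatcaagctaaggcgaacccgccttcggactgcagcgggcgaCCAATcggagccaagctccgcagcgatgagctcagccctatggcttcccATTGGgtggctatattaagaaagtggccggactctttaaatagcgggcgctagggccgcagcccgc
The Spen window held GGGCGG at 2 places, and the Rhob window held it at 1 place and CCAAT at 2. Neither held TGACGTCA, the AP1 motif TGAGTCA or the core of the TATA box, TATAAA. The GC box occurred in 57.7% of the 1443 RefSeq promoter windows of 300 bases that lay in clusters free of V5, in 54.6% of the 2147 in V5-holding clusters, in 65.2% of the 13367 that overlapped any H3K27ac peak and in 35.7% of all 32851 windows. The box CCAAT occurred in 34.6%, 33.5%, 36.2% and 37.4% of them in the same order, and the TATA core in 6.58%, 8.90%, 6.17% and 13.6%.

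The clusters free of V5 were compact, and in most of them the highest peak was at a promoter. Their median width was 17.2 kb (range, 2.77 to 94.4), against 20.9 kb in V5-holding clusters, and together they spanned 18.5 Mb against 39.4 Mb. The highest H3K27ac score in a cluster had a median of 662.5 (range, 49 to 7104), against 1008. Peaks covered a median of 32.3% of the cluster, against 38.6%. The peaks themselves scored lower than H3K27ac peaks in general, with a median of 140 against 212 over the whole list and 172 in V5-holding clusters. In 706 of 942 clusters (74.9%) the highest peak lay within 3 kb of a TSS, against 65.9% of V5-holding clusters. The nearest V5 peak was a median of 62705 bp away, with 8 clusters within 10 kb of one and 322 beyond 100 kb.

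**Figure D1:**
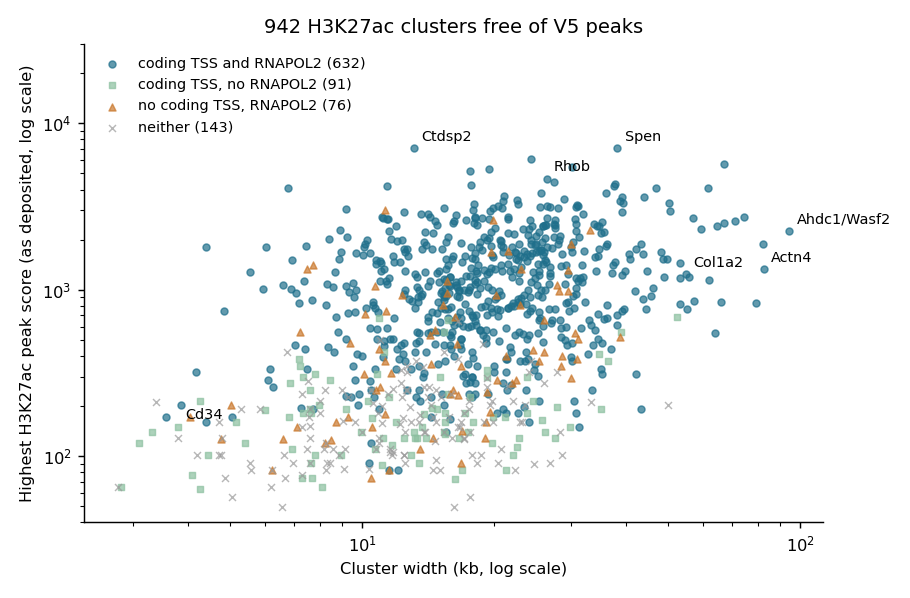
Each point is 1 of the 942 clusters free of V5, with its width in kb on a log axis and the highest score of its H3K27ac peaks on a log axis; colour and shape give whether it holds a coding TSS and whether it overlaps RNAPOL2. Clusters with both reach from narrow to wide with a median highest score of 1040.5, and those with neither sit low, with a median of 160.

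The limits of the rule divided a continuous range. At the limit on peak number, 512 members had exactly 3 peaks and a median width of 13.7 kb, and 70.3% of them overlapped RNAPOL2. Just below it, 1556 regions free of V5 had 2 peaks and a median width of 7.16 kb, and 65.6% of them overlapped RNAPOL2. The widest of these lay near Ninj2 (19600 bp), Fes (19020 bp) and Fmnl1 (17930 bp). At the limit on V5, the members nearest to a V5 peak were the clusters of Sh3rf1 (1160 bp away), Ap2a2 and Chid1 (2050 bp) and one near Zfhx3 (4080 bp). Outside it, V5 peaks shared 140 bp with the cluster of Heyl, 160 bp with that of Erg and 250 bp with that of Tpcn1. At the limit on gaps, the cluster of Pkn3, Set and Wdr34 included a gap of 12000 bp, and those of Chchd2 and of Themis2 included 11970 bp. The smallest gaps that separated regions beside a member were 12010, 12020 and 12020 bp.

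Most members coupled a coding gene start with RNAPOL2. Divided by both features, 632 clusters (67.1%) held a coding TSS and overlapped RNAPOL2, 91 (9.66%) held a coding TSS only, 76 (8.07%) overlapped RNAPOL2 only and 143 (15.2%) had neither. The same shares in V5-holding clusters were 62.1%, 4.38%, 15.5% and 18.1%. Median highest H3K27ac scores in the members were 1040.5, 160, 378 and 160 in that order, and median widths were 19.3, 13.1, 16.0 and 12.5 kb. A cluster with a coding TSS but no RNAPOL2 peak therefore scored like one with neither. Of the 219 members with no coding TSS, 120 (54.8%) overlapped the body of a coding gene, and their median distance to the nearest coding TSS was 21675 bp.

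Clusters free of V5 held coding starts more often than V5-holding clusters of a like number of peaks. A coding TSS lay in 723 of 942 (76.8%; Wilson 95% interval, 73.9 to 79.3) and in 1002 of 1508 (66.4%; 64.0 to 68.8). Within strata of peak number the odds ratio was 1.93 (95% interval, 1.59 to 2.33; Mantel-Haenszel chi-square test, adjusted p = 6.88e-11 over the 8 tests made). The share was higher in every stratum, at 72.3% against 59.3% with 3 peaks, 80.4% against 64.1% with 4, 78.4% against 64.6% with 5, 84.1% against 79.8% with 6 to 7 and 97.4% against 81.5% with 8 and over. The difference with 6 to 7 peaks did not pass the test (odds ratio 1.34, 0.679 to 2.66; Fisher's exact test, adjusted p = 0.562), and those of the other 4 strata did. A Breslow-Day chi-square test did not detect a difference among these odds ratios (p = 0.339). Within strata of cluster width, an alternative added after the data were seen, the odds ratio was 2.26. Members also held more than 1 coding gene more often, in 308 clusters (32.7%) against 26.0%, and coding genes lay at 6.96 against 4.69 per 100 kb. In all, 1268 of 21938 coding genes (5.78%) had a TSS in a cluster free of V5 and 8.25% had one in a V5-holding cluster, with 30 genes in both through separate starts.

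**Figure D2:**
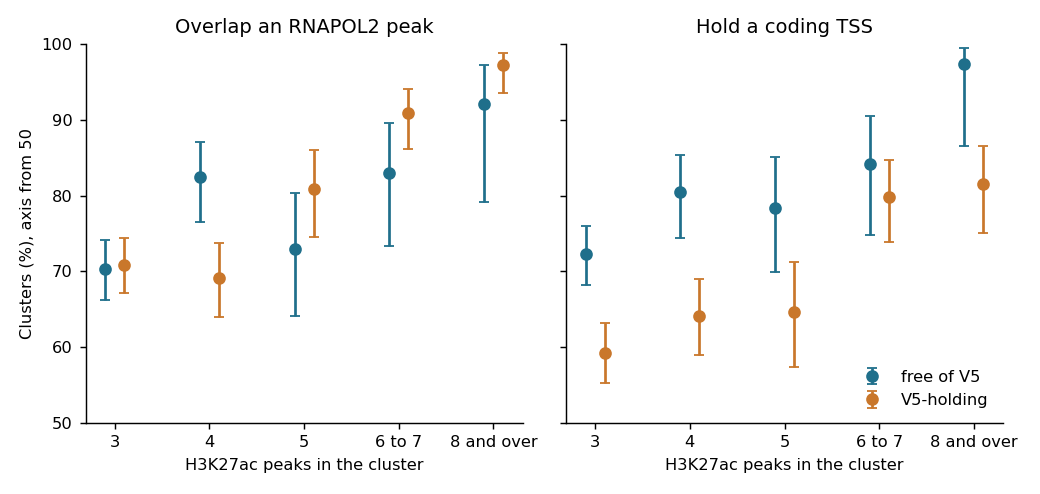
Share of clusters (%, axis from 50) that overlap an RNAPOL2 peak (left) and that hold a coding TSS (right) by the number of H3K27ac peaks in the cluster, for clusters free of V5 and V5-holding clusters; bars are Wilson 95% intervals. The coding TSS share is higher in clusters free of V5 in each stratum, whereas the order of the RNAPOL2 share changes between strata.

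The share of clusters with RNAPOL2 did not differ detectably between the classes as defined here, and other settings gave differences in either direction. Over all clusters, 76.6% overlapped an RNAPOL2 peak. The share was 708 of 942 (75.2%; 72.3 to 77.8) in clusters free of V5 and 1169 of 1508 (77.5%) in V5-holding clusters, with an odds ratio of 0.877 (0.725 to 1.06; Fisher's exact test, two-sided, adjusted p = 0.247). Within strata of peak number it was 1.03 (0.852 to 1.26; Mantel-Haenszel chi-square test, adjusted p = 0.728). With 3 peaks, which 512 members had, the share was 70.3% against 70.9%. The strata did not share 1 odds ratio (Breslow-Day chi-square test, p = 0.000488). With 4 peaks the members were ahead, at 82.4% against 69.1% (odds ratio 2.09; Fisher's exact test, adjusted p = 0.00249 over the 10 strata tested). With 5 peaks they had 73.0% against 80.9%, with 6 to 7 peaks 82.9% against 90.9% and with 8 and over 92.1% against 97.2%, none of which passed the test. The overall value depended on the settings. By Fisher's exact test it was lower in the members with 6 kb gaps (0.720, adjusted p = 0.00551) and with at least 5 peaks (0.449, adjusted p = 0.000811), and higher with the upper 50% of V5 peaks by score (1.23, adjusted p = 0.0476), whereas 20 kb gaps gave 1.00. Within strata of peak number the call changed as well. By the Mantel-Haenszel chi-square test the odds ratio was 0.782 with 6 kb gaps (adjusted p = 0.0381) and 0.559 with at least 5 peaks (adjusted p = 0.0115), but 1.27 with 20 kb gaps (adjusted p = 0.0279) and 1.50 with the upper 50% of V5 peaks (adjusted p = 5.81e-05), so neither class can be called richer in RNAPOL2 clusters.

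RNAPOL2 peaks in the members mostly overlapped acetylated peaks and lay near starts, at 9.49 peaks per 100 kb against 10.5 in V5-holding clusters. No RNAPOL2 peak was found in 234 clusters, 1 in 259, 2 in 172, 3 in 135 and 4 or more in 142, the last being 15.1% of members against 28.1% of V5-holding clusters, which hold more H3K27ac peaks and are wider. Of the 1754 RNAPOL2 peaks in members, 1629 (92.9%) overlapped an H3K27ac peak, against 90.0% of the 4141 in V5-holding clusters, and 1401 (79.9%) lay within 3 kb of a TSS, against 59.7%. Their median score was 331.5 against 157. RNAPOL2 covered a median of 7.33% of a member's bases against 10.8%. Across the 708 members with RNAPOL2, the highest H3K27ac score and the highest RNAPOL2 score of a cluster had a Spearman rho of 0.71, given as a description over regions that share 2 pooled lists.

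Distal acetylated peaks of the members overlapped RNAPOL2 less often. Farther than 3 kb from any TSS, 279 of 1655 H3K27ac peaks (16.9%; 15.1 to 18.7) in clusters free of V5 overlapped RNAPOL2, against 1214 of 4020 (30.2%; 28.8 to 31.6) in V5-holding clusters. Within quintiles of H3K27ac score the odds ratio was 0.566 (0.480 to 0.667; Mantel-Haenszel chi-square test, adjusted p = 6.88e-11). The difference was also present away from the V5 peaks themselves, since among distal peaks of V5-holding clusters that touched no V5 peak 626 of 2311 (27.1%) overlapped RNAPOL2, with an odds ratio of 0.444 (0.371 to 0.531). Those peaks had the same median H3K27ac score as the members' distal peaks, 91. Counting RNAPOL2 only over the central 500 bp, added after the data were seen, gave 15.2% against 26.4% and an odds ratio of 0.602. With the upper 50% of RNAPOL2 peaks by score, few distal peaks of either class overlapped RNAPOL2, at 3.56% against 6.89%. The odds ratio was then 0.689 (0.507 to 0.938; Mantel-Haenszel chi-square test, adjusted p = 0.0267).

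At promoters the difference passed the threshold in some settings only. Within 3 kb of a TSS, 1245 of 2123 H3K27ac peaks (58.6%; 56.5 to 60.7) of clusters free of V5 overlapped RNAPOL2, against 2162 of 3185 (67.9%; 66.2 to 69.5). Within quintiles of H3K27ac score, a coarse match, the odds ratio was 0.851 (0.724 to 0.999; Mantel-Haenszel chi-square test, adjusted p = 0.0792). By the same chi-square test it passed the threshold of 0.05 with 6 kb gaps (0.641, adjusted p = 5.16e-05), with at least 5 peaks (0.531, adjusted p = 3.26e-06) and against promoter peaks of V5-holding clusters without V5 (0.652, adjusted p = 7.15e-06). With the upper 50% of RNAPOL2 peaks it turned to 1.44 (chi-square test, adjusted p = 5.36e-05). Promoter and distal odds ratios were not tested against each other. Of the 1268 coding genes with a TSS in the members, 1147 (90.5%) had RNAPOL2 within 3 kb of a TSS, against 93.8% of those in V5-holding clusters and 53.5% of all coding genes.

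**Figure D3:**
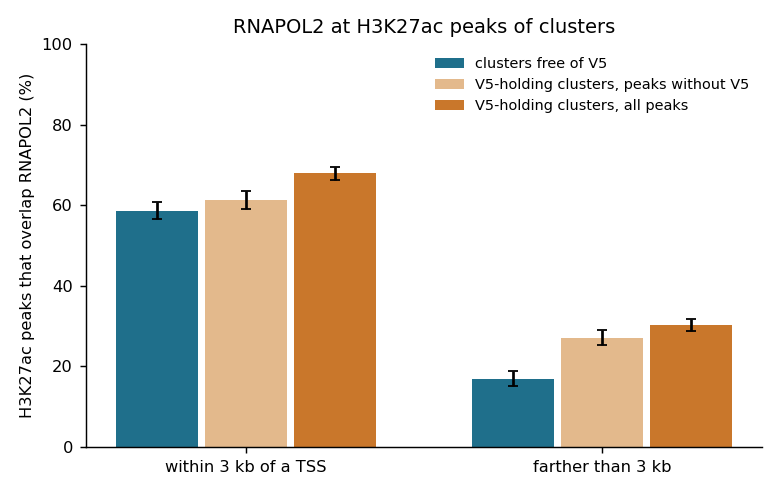
Share of H3K27ac peaks (%) that overlap RNAPOL2, within 3 kb of a TSS and farther away, in clusters free of V5, among the peaks of V5-holding clusters that touch no V5 peak, and among all their peaks; bars start at 0 and whiskers are Wilson 95% intervals. At distal peaks the members have 16.9% against 27.1% and 30.2%.

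The ATF/CREB motif was rarer in the members than in V5-holding clusters. TGACGTCA (its own reverse complement) stood in the central 500 bp of 19 of 3778 peaks (0.503%) against 120 of 7205 (1.67%), and in 1.76% of all H3K27ac peaks. The odds ratio within promoter and distal classes was 0.287 (0.176 to 0.468; Mantel-Haenszel chi-square test, adjusted p = 2.44e-07). V5 chose the classes and the fusion keeps a domain that binds this motif, so the test cannot separate the motif from that choice. In V5-holding clusters 102 of the 120 peaks with the motif (85.0%) overlapped V5. Against their peaks without V5 the members did not differ detectably, with 0.503% against 0.434% and an odds ratio of 1.16 (0.601 to 2.23). TGACGTCA stood in 0.554% of RefSeq promoter windows in the members and 3.59% in V5-holding clusters. It stood in 3.20% of windows on any H3K27ac peak and in 1.79% of all. Windows under V5 were not set aside, so these shares are given as a description. The AP1 motif TGAGTCA (either strand, no overlap with TGACGTCA in letters) stood in the central 500 bp of 12.5% of the members' peaks and 13.7% of those in V5-holding clusters (odds ratio 0.963, 0.856 to 1.08; Mantel-Haenszel chi-square test, adjusted p = 0.612), and in 11.1% of all H3K27ac peaks. Over whole peaks, which are wider in V5-holding clusters, it was 29.8% against 35.5% with an odds ratio of 0.781 (adjusted p = 2.60e-08 by the Mantel-Haenszel chi-square test).

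The members with the most peaks and the widest members were built in different ways. The most peaks, 18, lay at Actn4, Eif3k and Map4k1 (chr7:28900791-28983380, 82.6 kb), where Actn4 encodes an actin cross-linker and Map4k1 a kinase of blood cells. H3K27ac scores there ran from 34 to 1326, the highest at a start of Actn4, and 5 RNAPOL2 peaks scored 80, 3835, 80, 54 and 411, the 3835 at the same start. Only 4 of the 18 acetylated peaks overlapped RNAPOL2. The widest, at Ahdc1 and the WAVE complex gene Wasf2 (chr4:133038301-133132670, 94.4 kb), had 14 H3K27ac peaks of up to 2267 and 20 RNAPOL2 peaks of up to 1851, which covered 42.3% of it. The cluster of Aprt, Cdt1, Galns and Piezo1, a mechanosensitive channel gene, had 13 peaks over 82.3 kb with RNAPOL2 of up to 3128. Cyth1, an exchange factor for ARF GTPases, had 12 peaks over 62.0 kb, and the septin gene Sept9 had 11 over 79.4 kb with RNAPOL2 of only up to 395. The cluster of Birc5 (survivin) and Tk1 (thymidine kinase), with 6 further genes, had 11 peaks and 9 RNAPOL2 peaks of up to 2791. That of Cdh23 and the immune checkpoint gene Vsir had 11 peaks of up to 762 and 9 RNAPOL2 peaks of up to 585. Cyth1 and Cdh23 were named for their peak number and were not among the 10 widest. The 10 widest also included the clusters at Sparc, Atox1 and G3bp1 (74.3 kb), Cstad (67.1 kb) and Csk and Ulk3 (66.8 kb). They further included those at Ntmt1 (65.9 kb) and the nuclear receptor coactivator gene Ncoa3 (64.6 kb, RNAPOL2 of up to 5840).

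**Figure D4:**
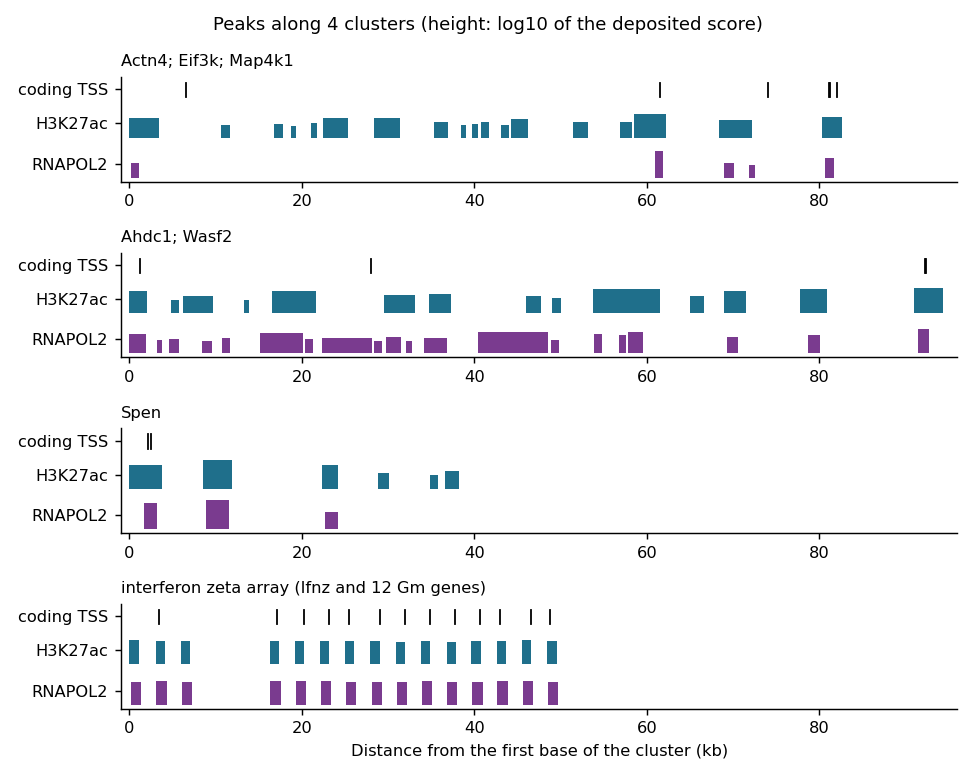
Peaks along 4 clusters free of V5, in kb from the first base of each, with box height as log10 of the deposited score, RNAPOL2 below, H3K27ac above and ticks at coding TSSs. RNAPOL2 covers much of the Ahdc1 and Wasf2 cluster and overlaps 4 of the 18 acetylated peaks at Actn4. It overlaps all 15 called acetylated peaks of the interferon array, where reads can map to several copies.

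The interferon zeta array on chromosome 4 (chr4:88756721-88806310) stood apart in its regularity. Its 15 H3K27ac peaks scored between 1067 and 1537 (median 1310), its 15 RNAPOL2 peaks between 897 and 1382 (median 1186), and the starts of neighbouring H3K27ac peaks lay a median of 2925 bp apart. It held the starts of Ifnz and 12 Gm genes, near-identical copies. The copies share long runs of sequence, for example a 30-base run on the plus strand that occurred in all 15 H3K27ac peaks and is shown to make the repetition visible.
Interferon zeta array, chr4:88756943-88756972: aaaactcgtgctgacttacagagggagggt
Of its 31-base words, 80.2% occurred more than once within the cluster, against a median of 0.612% in the members. Reads from such copies can map to several of them, so the number of marked copies and their scores are uncertain. Only 4 other members exceeded 10%, the highest being one near Pls3 on chromosome X (90.5%).

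The highest acetylation fell on gene starts. The highest scores were 7104 at Spen (a transcriptional corepressor), 7080 at Ctdsp2 (a phosphatase), 6091 at Pcif1 and Pltp, 5666 at Csk and Ulk3, 5483 at Trim8, 5334 at Itm2b, 5185 at Pigv, 4645 at Rhob, 4428 at Bcl2l1 (the antiapoptotic BCL-XL) and 4306 at Npepps and Mrpl45. In 9 of these 10 the highest peak covered a coding TSS. The exception was Spen, where the promoter peak scored 1640 for H3K27ac and 2488 for RNAPOL2, and the peak of 7104, with RNAPOL2 of 6440, lay 6003 bp upstream over the start of B330016D10Rik, annotated as a pseudogene. At the small GTPase gene Rhob a peak of 6800 bp held the promoter and the other 2 peaks scored 91 and 129. High RNAPOL2 scores were 8514 at Parp16, 7106 at Rhob, 7106 at Hnrnpab and Nhp2 and 6440 at Spen. At Parp16 the highest H3K27ac score was 894, below the median of members with a coding TSS and RNAPOL2 (1040.5).

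Some clusters were long but had no RNAPOL2. Frmd4b (8 peaks of up to 192), Necab2 and Osgin1 (8, up to 410), Inpp5d (7, up to 688) and the endocytic scaffold gene Itsn1 (7, up to 149) were examples. Inpp5d encodes the phosphatase SHIP1 of blood cells. The clusters farthest from V5 lay at Atp7a, Cox7b and Magt1 on chromosome X (3660950 bp), Cd34 (1764910), Plxna1 (1261790), near Tmsb4x (1185990) and at Rabgap1, Rc3h2, Zbtb26 and Zbtb6 (1145620). Cd34, a surface marker of endothelial and blood progenitor cells, had 3 peaks of 150, 49 and 41 and no RNAPOL2, whereas the Rc3h2 cluster reached 3162 for H3K27ac and 4061 for RNAPOL2.

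Each cell type marker list had at most 3 genes in the members. All coding genes gave 5.78% in the members and 8.25% in V5-holding clusters. Beside this, 3 of 16 fibroblast markers (18.8%) had a TSS in a cluster free of V5, and 3 more in a V5-holding cluster. Col1a2, a chain of type I collagen, lay in 10 peaks over 54.8 kb with H3K27ac of up to 1242 and RNAPOL2 of 2658 at the highest and 623 over a peak of 33600 bp. Col1a1, the partner chain, had 6 peaks over 46.2 kb with a highest H3K27ac score of 1024, over 18370 bp, and a highest RNAPOL2 score of 3415, over 18880 bp. RNAPOL2 thus extended along both collagen genes. Col6a2 had 5 peaks of up to 598 and 1 RNAPOL2 peak of 629. The matricellular gene Sparc, in no list, shared an 11-peak cluster with Atox1 and G3bp1 that reached 2717 for H3K27ac and 4346 for RNAPOL2. Of 16 endothelial markers, 3 (18.8%) had a TSS in a member (Pecam1, Sox18 and Eng) and 2 in a V5-holding cluster. The adhesion gene Pecam1 had 3 peaks of up to 346 and 1 RNAPOL2 peak of 80, which was not at its promoter. The cluster that the factor gene Sox18 shared with Rgs19 and Tcea2 reached 718 and 936. The cluster that the TGF-beta coreceptor gene Eng shared with Ak1 reached 1024 and 274. Myeloid markers were represented by Irf8 alone (1 of 20, H3K27ac up to 226, RNAPOL2 2155), with 6 more in V5-holding clusters. Lymphocyte markers had Lck (1 of 16), in a cluster with Fam167b of up to 140 and no RNAPOL2. Pericyte markers had Cspg4 (1 of 12), in a cluster with Odf3l1 of up to 384. Skeletal muscle markers had Mylpf (1 of 20), which shared its cluster of up to 2305 with Cd2bp2, Sept1 and Tbc1d10b. None of 13 melanocyte and none of 13 neural crest and Schwann markers had a TSS in a cluster of either class, and RNAPOL2 lay within 3 kb of a TSS of 2 and 5 of them, beside 53.5% of all coding genes.

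Most genes of the regulator lists lay in no cluster of either class. These were 23 of 36 limb and homeobox regulators, 22 of 29 growth factor signalling genes and 10 of 16 antigen presentation and interferon genes. They were also 15 of 20 cell cycle genes, 15 of 25 bZIP factor genes and 11 of the 15 genes that the study singles out. Of 36 limb and homeobox regulators 5 had a TSS in a member and 8 in a V5-holding cluster. Hoxd8 and Hoxd9 shared a 15.3 kb cluster with Hoxd3 and Hoxd4 (H3K27ac up to 977, RNAPOL2 up to 571). The cluster of Prrx2 and Asb6 reached 762 and 585, and that of Hoxb7 had peaks of at most 63 without RNAPOL2. Of 29 growth factor signalling genes, 3 were in members and 4 in V5-holding clusters. Scores are the highest of a whole cluster and need not belong to the named gene. The cluster of the inhibitory Smad gene Smad7 reached 2435 for H3K27ac and 1813 for RNAPOL2. That of the ligand gene Tgfb1, shared with B9d2, reached 1801 and 1053. That of Id1, a dominant-negative bHLH factor induced by BMP, was shared with Cox4i2 and reached 477 and 1409. Of 16 antigen presentation and interferon genes, Irf9 and Isg15 were in members and 4 in V5-holding clusters. The cluster that Irf9 shared with Emc9, Psme1, Psme2 and Rnf31 reached 2472 and 990. The cluster that Isg15 shared with Agrn and AW011738 reached 1251 and 1229. Of 20 cell cycle genes, Cdk4 was in a member and 4 in V5-holding clusters. The cluster that Cdk4 shared with March9 and Tspan31 reached 1469 and 1432. None of the 25 bZIP factor genes listed, from the family of ATF1, was in a member and 10 were in V5-holding clusters, beside 5.78% and 8.25% of all coding genes. The list is not the whole family, and Batf3, Creb3l1 and Creb3l2, which it leaves out and which were chosen after their values were seen, each had a TSS in a member. Of the 15 genes that the study singles out, 0 were in a member, beside the same 5.78% of all coding genes, and 4 were in V5-holding clusters. These counts are descriptions, since the classes were set by V5 and the lists are small.

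The share free of V5 was highest on chromosome X. There 11 of 14 clusters (78.6%; 52.4 to 92.4) were free of V5, against 38.2% on autosomes. Since overlap with V5 chose the members, these shares are given as a description. The 11 included Plp2 and Prickle3, Praf2 and Wdr45, and Tfe3 and Ccdc120, all in 1 stretch between 7648281 and 7765930, and the corepressor gene Bcor (4 peaks of up to 762, RNAPOL2 up to 881). Those neighbours are not independent. Among autosomes the share ran from 19.2% on chromosome 13 (19 of 99) and 19.7% on chromosome 18 (13 of 66) to 51.9% on chromosome 11 (108 of 208).

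**Figure D5:**
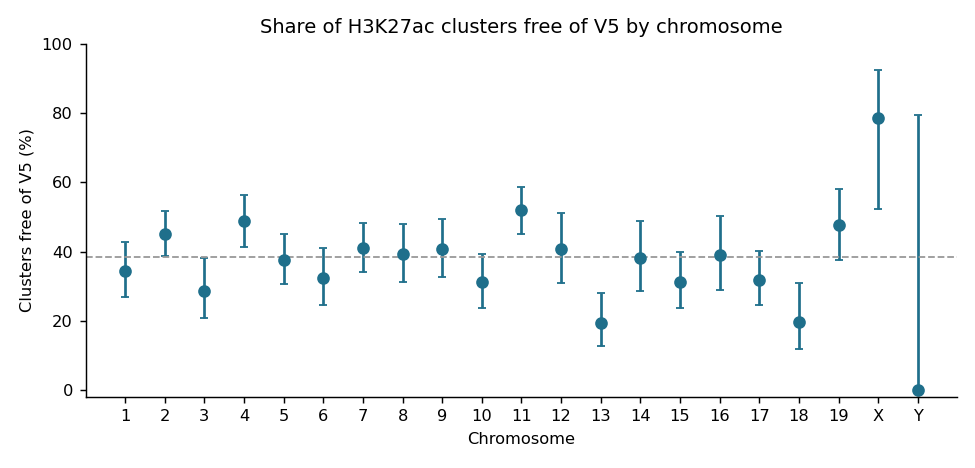
Share of clusters free of V5 (%) on each chromosome with Wilson 95% intervals, the dashed line marking 38.4% over all clusters. Chromosome X is highest at 78.6% of 14 clusters, chromosomes 13 and 18 are lowest among autosomes, and Y had 1 cluster.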

How the data were processed

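ChIP-seq reads of V5, RNAPOL2, H3K27ac and input samples (4 each in the labels) were aligned by the authors with BWA-MEM 0.7.10-r789 to mm10, and peaks were called with MACS2 2.2.6 against input, with the broad option for H3K27ac. Duplicates and denylisted regions were removed. The authors deposited 1 peak list per antibody with a score per peak. Its scale is not given in the sources used here, and score levels were compared only inside 1 list, with ranks alone used across lists. The methods name more V5 and RNAPOL2 samples than the labels, and the samples behind each list cannot be named. The lists hold no values or depth per sample, so tests count regions or peaks and not tumours, neighbouring regions are not independent, and intervals cover counting error only.

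TSSs came from GENCODE vM21, sequence from GRCm38.p6 and promoter windows of 300 bases from RefSeq, which matched 1001 of the 1268 coding symbols in the members. Overlap needed 1 shared base. Coding TSSs were those of any transcript of a protein-coding gene. Tests of shares were Fisher's exact test (scipy 1.17.1) or the Mantel-Haenszel chi-square test (statsmodels 0.14.6), two-sided, with Benjamini-Hochberg adjustment over 8 tests (1 of them, of the chromosome X share, supports no statement here, since V5 chose the members) and a threshold of 0.05, and peak number, H3K27ac score quintile or promoter class as strata. Functions were tested on simulated data. Motifs were searched on both strands. Members, lists and tests were chosen with earlier results of these data known. Named clusters were the 10 with most peaks, the 10 widest, the 10 with the highest H3K27ac and the 5 with the highest RNAPOL2 score, the 5 with most peaks and no RNAPOL2, the 5 farthest from V5, those at each limit, and list genes, of which a few are not reported here. Alternatives changed the gap, the peak number, the lists and the windows (11 choices, and 3 added after the data were seen).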

Additional observations from a re-analysis of the deposited data

How the results depend on the processing

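Of 65 values under alternatives, 45 kept their direction and side of the threshold, among them every one for coding TSSs and for RNAPOL2 at distal peaks. Odds ratios that changed are grouped by setting, and the cause was not tested. With 6 kb gaps they were 0.720 for RNAPOL2 by cluster, 0.782 within strata, 0.641 for RNAPOL2 at promoter peaks, 1.01 for TGAGTCA and 3.99 for chromosome X. With 20 kb gaps they were 1.00 by cluster and 1.27 within strata. With at least 5 peaks they were 0.449 by cluster, 0.559 within strata, 0.531 at promoter peaks, 1.05 for TGAGTCA and 0 for chromosome X, where 1 cluster remained. With the upper 50% of V5 peaks they were 1.23 by cluster, 1.50 within strata and 2.13 for chromosome X. With the upper 50% of RNAPOL2 peaks they were 1.03 by cluster and 1.44 at promoter peaks. Against the peaks of V5-holding clusters without V5 they were 0.652 at promoter peaks and 1.16 for TGACGTCA. Over whole peaks TGAGTCA gave 0.781. No paired analysis was possible because each antibody has 1 list whose columns carry no replicate number, and for the same reason no replicate could be left out. Depth is unknown, so a cluster without V5 or RNAPOL2 lacks a called peak and need not lack the factor.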
